A study of Mus musculus with 16 samples.

Results

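Skeletal muscle fibres carry a small set of microRNAs (miRNAs) that are commonly called myomiRs, and 5 of them, mmu-miR-1, mmu-miR-206, mmu-miR-133a, mmu-miR-133b and mmu-miR-133a* (the mouse forms, written without the prefix from here on), were followed here in the sciatic nerve of mice lacking Dicer in Schwann cells. They were the rows of the arrays that bear these names, and all 5 were among the 281 expressed miRNAs, out of 650 miRNAs on the array. The scanner software gives a detection call per miRNA and array, and a miRNA detected on 50% or more of the arrays in any group was taken as expressed. The samples were total RNA of sciatic nerves from 16 mice, 4 in each of 4 groups, hybridized to 16 single-colour arrays. Mutant mice were Dicer fl/fl Dhh-Cre+, with both Dicer1 alleles floxed, and control mice were Dicer wt/fl Dhh-Cre+, with 1 floxed allele and the same Cre transgene, so the controls had also lost 1 copy of Dicer1 in the Schwann cell lineage. Nerves were taken at embryonic day 17 (E17) and at postnatal day 4 (p4). The floxed strain was Dicer1tm1Bdh/J, and Cre was driven by the Dhh promoter, which is active in Schwann cells from the precursor stage on, so a whole nerve also holds cells in which Dicer was not targeted. Dicer1 mRNA was not measured by these arrays.

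Dicer cuts hairpin precursors into short mature miRNAs, and the seed, the bases next to the 5′ end, selects the target mRNAs. miR-1 and miR-206 share their seed and therefore many targets, but their deployment differs. miR-1 is made in heart and skeletal muscle, whereas miR-206 is restricted to skeletal muscle, where it is prominent in developing and regenerating fibres. miR-133a is transcribed together with miR-1, and miR-133b together with miR-206, and the miR-133 sequences are nearly identical, so that the signals of the miR-133a and miR-133b probes are not fully independent. miR-133a* is the passenger strand of the miR-133a hairpin, which is usually far less stable than the mature strand. miR-1 is best known for promoting differentiation of myoblasts, and miR-133 for promoting their proliferation.

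The members with an entry in the RefSeq table used here were 2 of 5, miR-206 and miR-133b, and they are shown because miR-206 was the only member called in any comparison and miR-133b is its genomic neighbour. Each sequence is written 5′ to 3′ with the seed, bases 2 to 8, in capitals.
mmu-miR-206: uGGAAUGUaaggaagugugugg
mmu-miR-133b: uUUGGUCCccuucaaccagcua
Mature miR-206 lies at chr1:20679055-20679076 and mature miR-133b at chr1:20682834-20682855, both on the plus strand of GRCm38.p6. Their hairpins, Mir206 and Mir133b, are separated by 3686 bases. The pair differed in seed, although both come from neighbouring hairpins on the same strand.

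The 2 slides of the study divided by age, all 8 E17 arrays on 1 slide and all 8 p4 arrays on the other, with both genotypes on each slide. Age and slide therefore cannot be told apart, whereas the comparison of genotypes was made within a slide. Between 197 and 260 miRNAs were detected per array, no spot was saturated, and arrays of 1 group correlated with r from 0.962 to 0.998. Added over all miRNAs, the background-subtracted signal (arbitrary scanner units) was 36495 to 60374 in control and 39097 to 50827 in mutant nerves at E17, and 122860 to 154076 in control and 56841 to 83630 in mutant nerves at p4. The number of arrays, 4 per group, limits the precision of every value. A list of 3 miRNAs known from Schwann cells, miR-338-3p, miR-204 and miR-138, had a summed signal of 4923 to 5627 in p4 control and 232 to 462 in p4 mutant nerves, and all 3 were called lower in the mutants. These 3 had been selected on these same arrays, so they are no independent check of the labels. In whole nerve, fewer cells of a type and less RNA per cell cannot be told apart.

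Of the members, 4 were detected on all 16 arrays. The summed background-subtracted signal of the 5 members was 205 to 844 in control and 205 to 866 in mutant nerves at E17. At p4 it was 259 to 574 in control and 198 to 1000 in mutant nerves. The ranges overlapped in every comparison of 2 groups. As a share of the signal of all miRNAs, the members made up 0.410% to 1.40% in E17 control, 0.522% to 2.22% in E17 mutant, 0.201% to 0.372% in p4 control and 0.236% to 1.54% in p4 mutant nerves. The p4 control nerves were thus the group with the lowest and the narrowest share, below every E17 array, while the p4 mutant nerves spread from the control level up into the range of E17. The miRNAs that the myosin heavy chain genes of heart and slow muscle fibres host, miR-208a, miR-208b and miR-499, were detected on 0 of 16 arrays. Which cells of the preparation gave the signal of the members was not tested.

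Levels are given below as log2 normalized signal, quantile normalized over all 16 arrays, of the brighter of the 2 probes of each miRNA. miR-206 was measured at 7.88, 7.62, 8.92 and 8.65 in the 4 control nerves and at 7.75, 8.58, 7.61 and 9.56 in the 4 mutant nerves at E17. At p4 it was 6.67, 7.13, 6.92 and 6.81 in control and 8.63, 7.01, 7.13 and 8.55 in mutant nerves. All p4 control arrays lay below all E17 control arrays, and among the p4 mutants 2 arrays were at the E17 level and 2 at the p4 control level.

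miR-1, the member with the same seed, was measured at 7.87, 7.31, 8.17 and 8.65 in control and at 7.75, 8.92, 7.67 and 9.13 in mutant nerves at E17. At p4 it was 7.20, 7.57, 7.24 and 7.23 in control and 9.05, 7.25, 7.51 and 8.21 in mutant nerves. The same mutant arrays were high as for miR-206, replicates 2 and 4 at E17 and replicates 1 and 4 at p4, and the p4 controls overlapped the E17 controls.

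miR-133b, encoded beside miR-206, was measured at 7.76, 7.15, 8.31 and 8.59 in control and at 7.39, 8.77, 7.33 and 9.10 in mutant nerves at E17. At p4 it was 7.02, 7.38, 7.09 and 7.05 in control and 8.94, 6.84, 7.33 and 8.29 in mutant nerves. miR-133b had the lowest p4 mutant array below all p4 controls and the highest above every one of them, so that the mutant group enclosed the control group.

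miR-133a was measured at 7.10, 6.69, 7.46 and 7.59 in control and at 6.81, 7.87, 6.73 and 8.09 in mutant nerves at E17. At p4 it was 6.63, 7.02, 6.72 and 6.67 in control and 8.15, 6.54, 6.86 and 7.75 in mutant nerves. As for miR-133b, the p4 mutant arrays enclosed the p4 control arrays.

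The passenger strand miR-133a* was near the detection limit. It was detected on 5 of 16 arrays, 1 control and 2 mutant arrays at E17 and 2 mutant arrays at p4, and its probe was well above background on 2 arrays. Its signal ranged from 6.03 to 6.24 in E17 control, 6.08 to 6.36 in E17 mutant, 5.93 to 6.01 in p4 control and 5.99 to 6.33 in p4 mutant nerves. The 5 arrays with detection were E17 control replicate 4, E17 mutant replicates 2 and 4 and p4 mutant replicates 1 and 4, arrays on which the other members were high as well. No fold change is given for it, because its probe was not well above background in most arrays of every group.

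**Figure D1:**
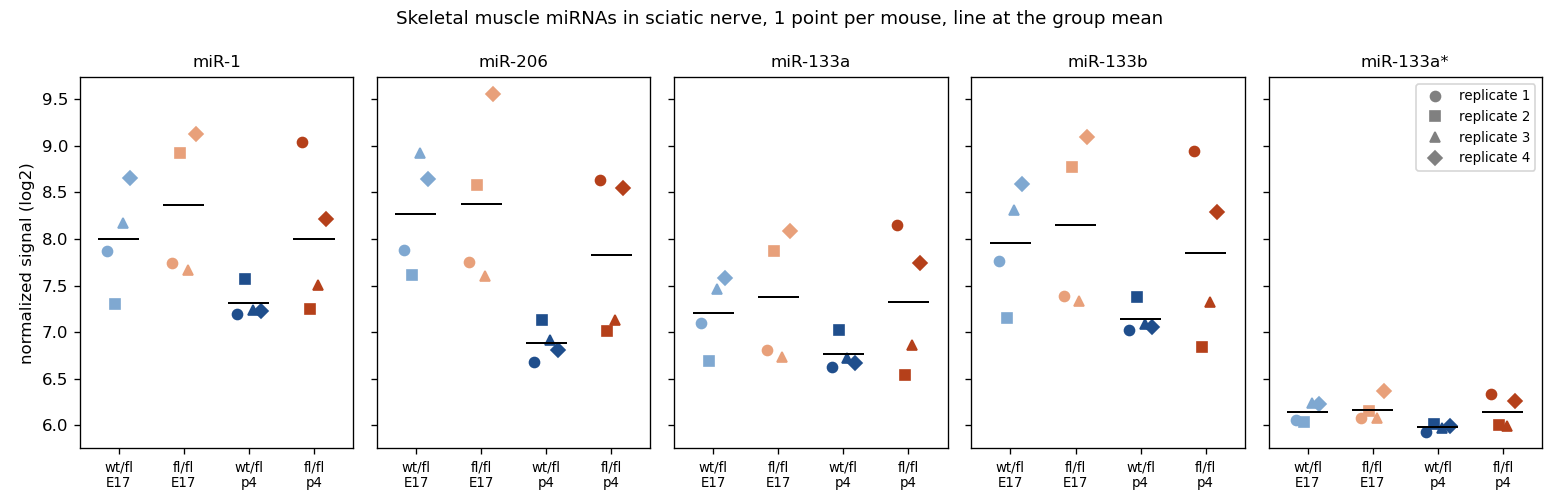
Normalized log2 signal (y axis) of the brighter probe of each skeletal muscle miRNA in the 4 groups (x axis), with 1 point per mouse, 1 marker shape per replicate number and a line at the group mean. The p4 control arrays are tightly grouped, for miR-206 between 6.67 and 7.13, whereas the other groups spread, for miR-206 in p4 mutants from 7.01 to 8.63.

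Whether loss of Dicer in Schwann cells altered the members was tested by comparing Dicer fl/fl Dhh-Cre+ with Dicer wt/fl Dhh-Cre+ nerves at each age. At p4, none of the 5 members was called, against 21% of all 281 expressed miRNAs called in either direction (limma, with an adjusted p by Benjamini-Hochberg not above 0.05 and a log2 difference not below 0.5 in size). Without adjustment, 0 of 5 had a p under 0.05 in limma and 0 by the methods' t-test. The estimates were all towards higher signal in the mutants. miR-206 differed by 0.95 (SE 0.466, 95% confidence interval -0.06 to 1.95, adjusted p = 0.118), from a mean of 6.88 ± 0.193 (SD, n = 4) in control to 7.83 ± 0.879 (SD, n = 4) in mutant nerves. miR-133b differed by 0.71 (95% confidence interval -0.33 to 1.76), miR-1 by 0.69 (-0.20 to 1.59) and miR-133a by 0.56 (-0.23 to 1.36), with limma adjusted p-values of 0.256, 0.194 and 0.238. With 1 array left out the values ran from 0.68 to 1.22 for miR-206, 0.35 to 1.05 for miR-133b, 0.35 to 0.95 for miR-1 and 0.29 to 0.82 for miR-133a, and none was called. The median log2 difference was 0.69 over the 5 members and 0.06 over all expressed miRNAs, each by its brighter probe. The intervals of all 4 members reached above 1, so the data allowed a 2-fold higher signal in the mutants. None reached below -1, but background is part of this normalized signal. The dimmer probe of miR-133a*, which lay near background throughout, averaged 5.83 in p4 control nerves. Means there were 6.76 for miR-133a and 6.88 for miR-206, so a difference of -1 would have taken both to about that level. Whether the amount of a member was 2-fold lower could therefore not be decided from these intervals. The 3 Schwann cell miRNAs named above had a median log2 difference of -2.04 in the same fit. They had been selected on these same arrays as lower in p4 mutants, so this value is no independent comparison for the members.

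The size of the p4 difference depended on the scale. On the background-subtracted signal itself, miR-206 was 1.70-fold, miR-133a 1.22-fold, miR-133b 1.2-fold and miR-1 1.13-fold higher in the mutants, with p from 0.31 to 0.80 (exact two-sided permutation test, n = 4 and 4). As a share of the summed signal of all miRNAs, which was lower in every p4 mutant than in every p4 control array, the same members were 3.30-fold, 2.38-fold, 2.33-fold and 2.21-fold higher. For miR-206 the exact permutation p of the share was 0.0571, and adjusted over the 16 tests of this kind it was 0.183. With each array scaled to the 75th percentile of its brightest probes, all 5 members were called higher at p4, and miR-206 differed by 1.42 (limma, adjusted p = 0.00156), but that scaling moved the median of all tested probes by 0.79 in the same direction. Relative to that shift, the log2 difference was 0.63 for miR-206 and 0.23 for miR-1. On the normalized signal, markers of other cells moved as well. Of 4 expressed smooth muscle and fibroblast miRNAs, 3 were called higher in p4 mutants, with a summed share of 7.07% to 8.72% against 3.20% to 3.67% in controls. Of 3 expressed leukocyte miRNAs 1 was called higher (summed share 0.430% to 0.725% against 0.173% to 0.222%), and of 2 endothelial miRNAs 1 (1.55% to 1.81% against 0.908% to 1.55%). The summed background-subtracted signals of these lists overlapped between the genotypes. In p4 mutant against control nerves they were 4020 to 7293 against 4139 to 5658 for smooth muscle and fibroblast. Leukocyte sums were 280 to 417 against 228 to 342, and endothelial sums 927 to 1512 against 1138 to 2381. The part of these lists in the difference of the members was not tested.

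At E17, none of the 5 members was called either, against 6.05% of all expressed miRNAs, and 0 of 5 had an unadjusted p under 0.05 in limma or by the methods' t-test. The log2 differences were 0.37 (95% confidence interval -0.53 to 1.26) for miR-1, 0.20 (-0.85 to 1.24) for miR-133b, 0.17 (-0.62 to 0.96) for miR-133a and 0.11 (-0.89 to 1.11) for miR-206. Of the smooth muscle and fibroblast miRNAs, 3 of 4 were called higher in the mutants at this age too, with a summed share of 6.96% to 7.69% against 3.51% to 5.94%. So were 1 of 3 erythroid miRNAs (5.38% to 12.2% against 1.74% to 5.44%) and 1 of 3 leukocyte miRNAs (0.353% to 0.421% against 0.223% to 0.293%). Of the endothelial miRNAs 0 of 2 were called by limma, with a share of 1.11% to 1.46% against 0.730% to 1.02%. The summed background-subtracted signals of each of these lists overlapped between the genotypes at E17. The part of these lists in the differences of the members was not tested. Mutant and control arrays of the 5 members overlapped, and the 4 mutant arrays fell into 2 high and 2 low ones on either side of the control mean. The difference between the p4 and the E17 genotype effects was called for none of the 5 (0 of 5 at an unadjusted p under 0.05 in limma), against 9.61% of all expressed miRNAs, and was 0.84 (95% confidence interval -0.58 to 2.25, limma adjusted p = 0.463) for miR-206. For miR-1, miR-133a and miR-133b it was 0.33, 0.40 and 0.52. A change of the genotype effect between the ages was therefore not detectable with these arrays.

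The age comparison asked how the members stood in p4 nerves relative to E17 nerves of the same genotype. In control nerves, miR-206 fell by 1.38 on the log2 scale (SE 0.466, 95% confidence interval -2.39 to -0.38, limma adjusted p = 0.0285), from 8.27 ± 0.618 (SD, n = 4) at E17 to 6.88 ± 0.193 (SD, n = 4) at p4. It was the only member called in this comparison, 1 of 5, against 12.1% of expressed miRNAs called lower and 20.3% called in either direction. The p4 arrays lay below all E17 arrays for both probes of miR-206. By the brightest probe of each miRNA alone, such a separation towards lower values at p4 was seen in 19.9% of expressed miRNAs. The dimmer probe of miR-206 was not called (limma adjusted p = 0.0591), and as it was well above background on 4 of 4 E17 but only 1 of 4 p4 control arrays, no difference is given for it. The call rested on few arrays. Without E17 control replicate 3 the difference was -1.17 (limma adjusted p = 0.0872), and leaving out E17 control replicate 4 or p4 control replicate 1, 3 or 4 also took the adjusted p above 0.05, to between 0.0526 and 0.0763, with differences of -1.26 to -1.40. The background-subtracted signal of miR-206 was 76.4 to 280 at E17 and 51.1 to 123 at p4, a ratio of 0.490 (exact permutation p = 0.114). Other lists moved between these groups as well. On the normalized signal of control nerves, 3 of 4 smooth muscle and fibroblast miRNAs and 2 of 3 erythroid miRNAs were called lower at p4. All 3 Schwann cell miRNAs were called higher. Summed shares at p4 against E17 were 3.20% to 3.67% against 3.51% to 5.94% for smooth muscle and fibroblast. For erythroid miRNAs they were 0.167% to 1.13% against 1.74% to 5.44%. The summed background-subtracted signal of the smooth muscle and fibroblast list was instead higher at p4, 4139 to 5658 against 1781 to 3368. That of the erythroid list was 205 to 1746 against 788 to 3283. The part of these lists in the difference of miR-206 was not tested.

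The other members were not called in control nerves, where without adjustment 1 of 5 members, miR-206, had a p under 0.05 in limma and 3 of 5, miR-206, miR-133b and miR-133a*, by the methods' t-test. The log2 differences were -0.82 (95% confidence interval -1.86 to 0.23) for miR-133b, -0.69 (-1.58 to 0.20) for miR-1 and -0.45 (-1.24 to 0.34) for miR-133a, and without normalization between arrays these 3 estimates turned positive. For miR-133a* the p4 control arrays lay below the E17 control arrays, without a call. On the background-subtracted signal, miR-1 and miR-133a had higher means at p4 than at E17 (1.18-fold and 1.16-fold), while their share of the summed miRNA signal was lower at p4 (0.429-fold and 0.422-fold), the summed signal itself being higher on every p4 control array than on every E17 array. In mutant nerves none of the 5 members was called between the ages, against 10.7% of expressed miRNAs, with 0 of 5 at an unadjusted p under 0.05 in limma or by the methods' t-test, and miR-206 differed by -0.55 (95% confidence interval -1.55 to 0.46). The estimates for miR-1, miR-133b and miR-133a in the mutants were -0.36, -0.30 and -0.05. These comparisons share groups with the genotype comparisons and are not independent of them.

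**Figure D2:**
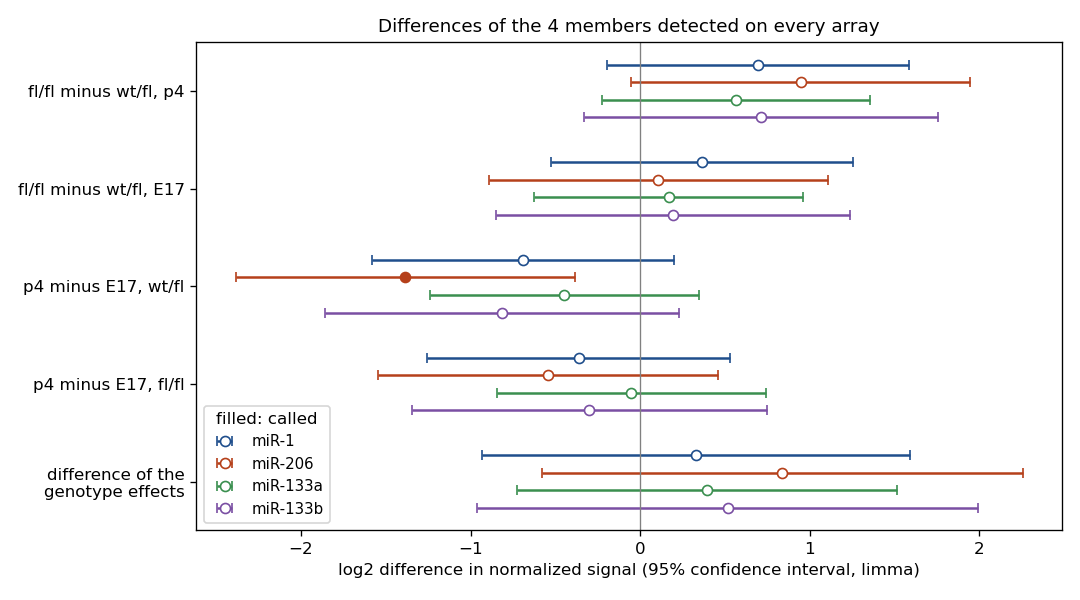
Log2 difference in normalized signal (x axis) with its 95% confidence interval for the 4 members detected on every array in each of the 5 comparisons (y axis), where a filled point is a called difference. Only miR-206 between p4 and E17 control nerves, at -1.38, is filled, and the interval of miR-206 between the genotypes at p4 runs from -0.06 to 1.95.

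Ordered by mean level, p4 control nerves were the lowest group and E17 mutant nerves the highest for the 4 members detected on every array. For miR-206 the order was p4 control (6.88), p4 mutant (7.83), E17 control (8.27) and E17 mutant (8.37), and miR-133b followed the same order. For miR-1 and miR-133a the p4 mutants stood above the E17 controls, by 0.0028 for miR-1. Between neighbouring groups in the orders of these 4 members the arrays overlapped, and no difference passed the test (limma adjusted p from 0.118 to 0.998).

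The ratio of 2 members within an array cancels any factor common to the whole set on that array, and its change between groups was compared for all 6 pairs of the 4 members detected on every array. The ratios are of scanner signals, not of molecules, so that only their change between groups is meaningful. The signal of miR-206 over that of miR-1, the member with the same seed, was 1.38, 1.58, 2.31 and 1.34 in control and 1.19, 1.02, 1.39 and 1.59 in mutant nerves at E17. At p4 it was 0.601, 0.657, 0.740 and 0.678 in control and 0.938, 0.876, 0.796 and 1.51 in mutant nerves. On this background-subtracted signal, no p4 control array reached the ratio of any other array of the study, and the E17 and p4 mutant arrays overlapped.

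Between E17 and p4 control nerves the ratio of miR-206 to miR-1 differed 0.414-fold, that to miR-133a 0.421-fold and that to miR-133b 0.531-fold. The arrays did not overlap for 5 of 6 pairs in that comparison, against 53.9% of all 13861 pairs of the 167 miRNAs detected on every array. Between p4 genotypes the arrays did not overlap for 2 of 6 pairs, against 55.8% of all pairs. Those were miR-206 over miR-1, with a log2 ratio 0.58 higher in the mutants, and miR-206 over miR-133b, with one 0.50 higher. On the normalized log2 signals of the brighter probes, the p4 genotypes overlapped for both pairs. For miR-206 over miR-1 the differences were -0.524 to -0.319 in control and -0.417 to 0.336 in mutant nerves. For miR-206 over miR-133b they were -0.351 to -0.167 in control and -0.313 to 0.260 in mutant nerves. At E17, 0 of 6 pairs separated the genotypes on the background-subtracted signal (33.6% of all pairs). In mutant nerves 1 of 6 pairs on that signal, miR-133b over miR-133a, separated the ages (49.3% of all pairs). On the normalized log2 signals that pair overlapped in mutants, at 0.579 to 1.01 at E17 and 0.293 to 0.797 at p4. Between the ages in controls, miR-133b over miR-1 was separated on the background-subtracted signal and overlapped on the normalized one. The reverse held for miR-133a over miR-1. Each pair separated on the background-subtracted signal had the smallest p that 4 arrays against 4 can give, 0.0286 (exact two-sided permutation test). After adjustment over the 24 tests it was 0.0857, so with 4 arrays per group these tests had little room to pass. Separation of this kind was thus common among pairs of all miRNAs, and whether the pairs of members differ from the others was not tested.

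**Figure D3:**
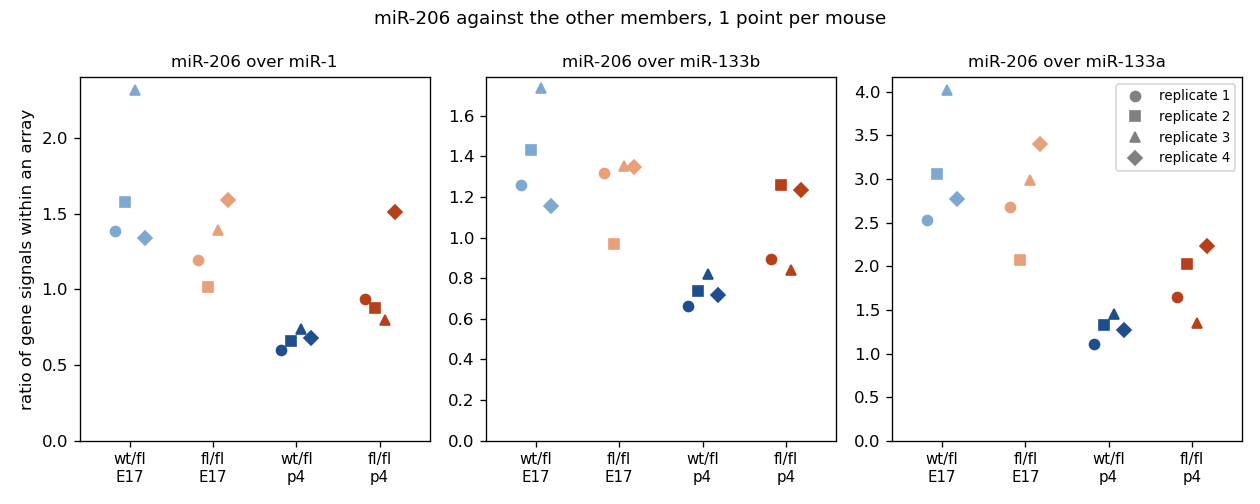
Ratio of the background-subtracted signal of miR-206 to that of miR-1, miR-133b and miR-133a within an array (y axes) in the 4 groups (x axis), with 1 point per mouse and 1 marker shape per replicate number. For miR-1 and miR-133b the 4 p4 control arrays lie below all other arrays, at 0.601 to 0.740 and at 0.662 to 0.823.

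The members varied more between nerves of 1 group than nearly all other miRNAs. The pooled SD within groups was 0.74 (log2) for miR-133b, 0.71 for miR-206, 0.63 for miR-1 and 0.56 for miR-133a, against a median of 0.13 over the 281 expressed miRNAs. Only 3 miRNAs varied more than miR-133b, namely miR-122, miR-1224 and miR-494 (named after their values were seen). In all, 7 of 281 varied more than miR-133a, the least variable of these 4 members. These 7 included miR-133b, miR-206 and miR-1 themselves, and the erythroid miR-451, with an SD of 0.71 like that of miR-206. The dim miR-133a* had a pooled SD of 0.12, close to the median.

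The spread was not alike in the 4 groups. In p4 control nerves the SDs of the 4 members were 0.17 to 0.19, and 56 to 77 of the 281 miRNAs had a larger one. In the p4 mutants the SDs were 0.75 to 0.95, in the E17 mutants 0.70 to 0.92 and in the E17 controls 0.40 to 0.64. In both mutant groups no miRNA of the 281 had a larger SD than miR-133b and 1, miR-133b itself, had a larger SD than miR-206. Background is part of this normalized signal, and the p4 controls had the lowest means. On log2 background-subtracted signal the contrast was smaller, with SDs of the 4 members of 0.48 to 0.57 in p4 controls. They were 0.81 to 0.90 in E17 controls, 1.03 to 1.16 in E17 mutants and 0.98 to 1.26 in p4 mutants.

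**Figure D4:**
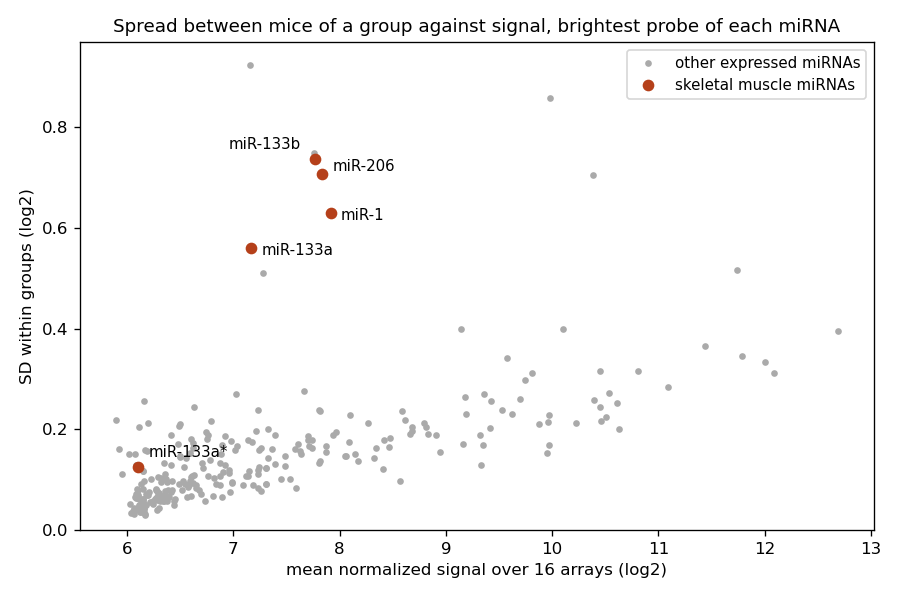
SD within groups (log2, y axis) against mean normalized signal over 16 arrays (log2, x axis) for the brightest probe of each of the 281 expressed miRNAs, with the 5 skeletal muscle miRNAs in colour. miR-133b (0.74), miR-206 (0.71), miR-1 (0.63) and miR-133a (0.56) lie far above most miRNAs of like signal, and miR-133a* (0.12) lies among them.

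The deviations of the members from their group means went together. Over the 16 arrays, the deviations of miR-133a and miR-133b correlated with r = 0.994 and rho = 0.982, those of miR-1 and miR-133b with r = 0.990 and rho = 0.988, and those of miR-1 and miR-133a with r = 0.980 and rho = 0.974, each with the smallest p that 100000 resamples within groups can give, 1e-05 (permutation test, two-sided). The near-identical sequences of the miR-133 probes bear on the first of these correlations. miR-206 followed miR-133a with r = 0.950 (rho = 0.944), its genomic neighbour miR-133b with r = 0.944 (rho = 0.956) and miR-1 with r = 0.907 (rho = 0.935). The 4 pairs with miR-133a* had r from 0.887 to 0.972 and rho from 0.879 to 0.965. All 20 permutation p-values for the 10 pairs, adjusted together, were at most 0.000810.

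Without the 2 arrays farthest from the median, p4 mutant replicate 1 and E17 mutant replicate 4, r was 0.817 to 0.991 over the 10 pairs and all adjusted p-values were at most 0.00298 (permutation test). The deviations of the remaining arrays were still taken from group means that included those 2 arrays, so their influence was not fully removed. Without normalization between arrays, the 6 pairs of the brighter members kept r of 0.914 to 0.990, but the 4 pairs with miR-133a* had r of 0.563 to 0.663 and adjusted p-values of 0.0518 to 0.0740 (permutation test). The points share the array, its labelling and its normalization, and a correlation within a slide could not be separated further with 4 arrays per group. The brighter and the dimmer probe of a miRNA correlated over the arrays with r = 0.992 for miR-133b, 0.979 for miR-133a, 0.958 for miR-206, 0.923 for miR-1 and 0.777 for miR-133a*. The dimmer probe was well above background on 11 arrays for miR-133b, 10 for miR-206, 5 for miR-133a, 4 for miR-1 and 0 for miR-133a*, so that it gave a second measurement of miR-133b and miR-206 on most arrays and hardly one of the others.

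**Figure D5:**
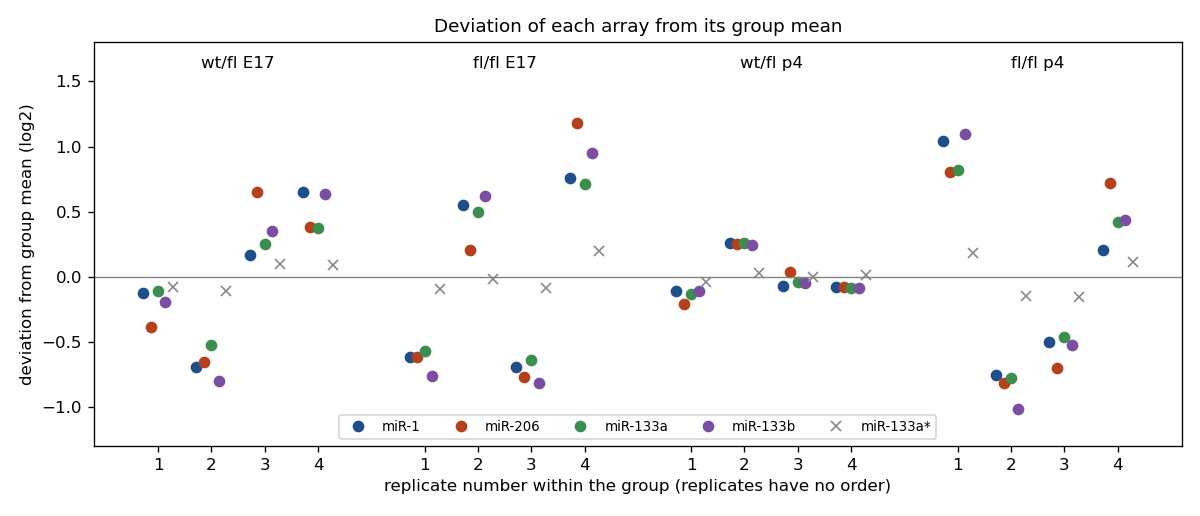
Deviation of the normalized log2 signal of each member from its group mean (y axis) on each of the 16 arrays, by group and replicate number (x axis, replicates have no order). On most arrays the points of miR-1, miR-206, miR-133a and miR-133b lie together, high on E17 mutant replicate 4 and p4 mutant replicate 1 and low on p4 mutant replicate 2, and those of p4 control nerves lie close to 0.

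By likeness over the 16 arrays (Pearson's r of the normalized signal, brightest probe of each miRNA), the 3 expressed miRNAs outside the set closest to miR-206 were miR-543 (r = 0.851), miR-495 (0.791) and miR-296-5p (0.765). Those closest to miR-1 were miR-543 (0.711), miR-381 (0.679) and miR-296-5p (0.679). Those closest to miR-133b were miR-543 (0.688), miR-296-5p (0.641) and miR-381 (0.627), and those closest to miR-133a were miR-381 (0.649), miR-125b-5p (0.603) and miR-543 (0.588). For miR-133a* they were miR-381 (0.748), miR-410 (0.731) and miR-300 (0.724). The same few miRNAs, miR-543 and miR-381 among them, recurred across members, but the members were closer to each other than to any of these, with r of 0.893 to 0.987 between them on the same values.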

How the data were processed

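Total RNA of sciatic nerves was labelled with Cy3-pCp and hybridized to Agilent mouse miRNA arrays. The files deposited by the authors hold the scanner intensity of each spot as extracted by Agilent Feature Extraction 10.5.1.1, per the labels, and a table of intensities that the authors had normalized, used here as an alternative. Each member had 2 probes of 10 spots.

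Median spot signals of 13000 non-control spots were log2 transformed, quantile normalized over the 16 arrays and averaged per probe without spots called non-uniform or population outliers. The 681 probes of expressed miRNAs were fitted in R 4.3.3 with limma 3.58.1 (lmFit, eBayes, 4 group means, 16 arrays), with Benjamini-Hochberg adjustment over these probes. A miRNA was called where at least 1 probe passed and none opposed it. The gene signal, called background-subtracted signal above, is the software's summed total per miRNA, and values below 0 were set to 0 in sums. Gene signals and ratios, the latter chosen after values had been seen, were tested by exact permutation over 70 assignments. Correlations used deviations from group means with 100000 resamples within groups. The methods' t-test, with equal variances and one probe at a time, was an alternative. The script was tested on simulated data, with a log2 change of 1 at p4 given to 200 of 681 probes. Of these changes 98.5% were recovered, but only 70% of the 10 among the most variable probes.

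Every member was named with all its probes, and of other miRNAs the 3 most alike. The members and lists were chosen with earlier results of these data known. Of the other lists, 3 erythroid miRNAs had 1 called higher at p4 in mutants, and 3 neuronal miRNAs had 1 called lower. Littermates were used in the study, but same-numbered mutant and control arrays did not deviate together, so numbers were not taken to pair samples. Where nothing states otherwise, each array is 1 mouse, and p-values measure the spread between these arrays.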

Additional observations from a re-analysis of the deposited data

Results flagged for a closer look

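The p4 control array of replicate 2 stood apart from the other 3 of its group for miR-1, with a log2 normalized signal of 7.57, the gap to its neighbour being 0.891 of the range of the group. For the ratio of miR-206 to miR-133b, E17 mutant replicate 2 stood apart, with a log2 ratio of -0.044 and a gap of 0.931 of the range. Of 60 groups of 4 values examined in this way 2 exceeded Dixon's critical share for 4 values, and chance gives about 5% of groups.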

How the results depend on the processing

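The results were recomputed under 33 other settings, 16 of which left out 1 array each. The planned normexp correction on mean spot signals was not run, because the files used here hold median spot signals, and it was replaced by one on those, chosen after seeing the data. At p4, the number of members called between the genotypes was 5 with arrays scaled to the 75th percentile, 2 with processed signals scaled in that way, 1 (miR-206) with array weights, and 0 as in the fit reported under every other setting. In control nerves between the ages it was 5, 2 and 1 under the same 3 settings, 2 by the methods' t-test without adjustment, 0 without a filter on absent miRNAs (miR-206 at an adjusted p of 0.0630, limma), and 0 to 1 with 1 array left out. Of the 681 tested probes, the same 3 settings called 530, 349 and 114 in either direction between the genotypes at p4. Between the ages in controls they called 510, 303 and 105. Scaling the arrays to the 75th percentile moved the median of all probes by 0.79 (genotypes at p4) and -0.74 (ages, controls). Relative to that shift, miR-206 differed by -1.01 between the ages. In the other 3 comparisons no setting gave a call. Without normalization between arrays, the age difference in controls became 0.052 for miR-133b, 0.26 for miR-1 and 0.24 for miR-133a, that in mutants 0.046, 0.070 and 0.20, and the difference of the genotype effects -0.0057, -0.19 and -0.049, while the median of all probes moved by 0.42, 0.02 and -0.37. Under the same setting miR-206 differed by -0.59 between the ages in controls (limma adjusted p = 0.0474, still called) and by 0.54 between the genotypes at p4 (limma adjusted p = 0.148). The cause was not tested. With 1 array left out, the E17 genotype difference ran from -0.29 to 0.36 for miR-206, -0.12 to 0.47 for miR-133b and -0.068 to 0.38 for miR-133a, the age difference in mutants from -0.66 to 0.039 for miR-133b and -0.33 to 0.21 for miR-133a, and the difference of the genotype effects for miR-1 from -0.019 to 0.58. The correlations of miR-133a* without normalization were 0.563 with miR-1, 0.663 with miR-133a, 0.583 with miR-133b and 0.578 with miR-206. All 204 recomputed ratios with miR-206 kept their direction. On normalized log2 signals, however, the p4 genotypes overlapped for miR-206 over miR-1 and over miR-133b. With the replicate number as a block (replicate block), miR-206 differed by -1.38 between the ages in controls (limma adjusted p = 0.0313) and by 0.95 between the genotypes at p4 (limma adjusted p = 0.134), and no call changed. Same-numbered arrays of the genotypes had correlations of deviations from -0.519 to 0.459, and not every array correlated best with its own number. The signal of miR-133a*, well above background on 2 arrays, allows no statement on the size of its differences.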
